A study of Mus musculus with 29 samples.

Results

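The genes of autophagy and of the lysosome were followed by a rule on gene symbols: all genes named Atg with a number, all V-ATPase subunits (Atp6v and Atp6ap), Lamp1 and Lamp2, the cathepsins Ctsa, Ctsb, Ctsc, Ctsd, Ctsh, Ctsl, Ctss and Ctsz, Map1lc3a and Map1lc3b, and Becn1, Sqstm1, Ulk1, Ulk2, Tfeb and Mcoln1. The rule found 60 of the 30025 genes in the table, and 51 of the 60 passed the filter on low values (FPKM of at least 1 in at least 4 libraries), as did 15409 genes in all. RNA-seq was made of CD150hi HSC, CD150lo HSC and CD150neg MPP sorted from the bone marrow of 5 WT and 5 5A3+/del mice, 29 libraries in total. There were 5 libraries in each group except 5A3+/del CD150neg MPP, which had 4. All mice were C57BL/6J, with ages of 12.42 to 13.28 weeks in the WT groups and 12.42 to 13.85 weeks in the 5A3+/del groups. The 5A3+/del mice are heterozygous for a germ line deletion of 2 Mb on chromosome band 5A3, made with Cre recombinase in embryonic stem cells, so every cell of the animal carries it and the sorted cells developed in a deleted host. All 3 populations were Kit+ lineage- Sca-1+ CD41- CD48- cells separated by CD150, and the labels call the third one HSC where the study calls it MPP.

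Autophagy encloses cytoplasm and organelles in a double membrane, the autophagosome, which then fuses with the lysosome. The lysosome is kept acidic by the V-ATPase, a rotary proton pump with a membrane sector (V0) and a cytosolic sector (V1), and its cathepsins digest the delivered protein. HSC are known to depend on autophagy for their maintenance, and quiescent HSC are known to hold large, little active lysosomes. The transcription factor TFEB is known to bind a palindrome around CACGTG in promoters of lysosomal genes.

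The promoter sequences of the members were searched for that palindrome, since it is the element that the regulator in this gene group recognizes. RefSeq promoters of GRCm38.p6 (250 bases before to 50 after the start) matched 47 of the 60 members. CACGTG was found in 13 of the 47 (27.7%) and in 8.09% of all 27025 genes with a promoter, and the longer TCACGTGA, each copy of which also holds a CACGTG, was found in 7 of the 47 (14.9%) and in 1.12% of all. Both read the same on either strand. The windows of the 7 are shown with the longer palindrome in capitals, since it was present in a higher share of these promoters than of all promoters. A match is a description of the letters in this window, and binding was not measured.
Mcoln1, chr8:3500462-3500491, plus strand: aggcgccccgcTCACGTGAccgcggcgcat
Ctsd, chr7:142387908-142387937, minus strand: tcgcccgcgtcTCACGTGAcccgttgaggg
Ctsa, chr2:164833749-164833778, plus strand: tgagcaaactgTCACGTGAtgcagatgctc
Atp6v0d1, chr8:105566050-105566079, minus strand: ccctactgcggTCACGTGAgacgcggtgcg
Atp6v0e, chr17:26676387-26676416, plus strand: tagcgcgccgaTCACGTGAgcctctgttga
Atp6v1a, chr16:44139373-44139402, minus strand: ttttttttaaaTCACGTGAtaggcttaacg
Atg3, chr16:45158746-45158775, plus strand: ggagagtcgagTCACGTGAggccttaggtg
Ctsa held a second copy that began 4 bases past the first base of its transcript. Mcoln1 encodes the lysosomal calcium channel, and its palindrome began 46 bases before the start. Of the 7 genes, Mcoln1 was the one that differed past the threshold in a comparison below, and in that comparison (CD150hi HSC minus CD150neg MPP, WT) the log2 differences of the 7 ran from -0.60 to 0.70 with a median of -0.11. Among the 13 with CACGTG, Atg14 also passed in a comparison below. Its CACGTG began 1 base before the start and was not part of the longer palindrome.

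Ctss and Ctsc, the genes that differed between populations in both genotypes, held neither palindrome, and the 150 bases before their starts are shown to that end.
Ctss, chr3:95526636-95526785, plus strand: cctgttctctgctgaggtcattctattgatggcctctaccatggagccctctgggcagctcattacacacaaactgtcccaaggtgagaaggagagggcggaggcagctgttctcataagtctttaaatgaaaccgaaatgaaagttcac
Ctsc, chr7:88277935-88278084, plus strand: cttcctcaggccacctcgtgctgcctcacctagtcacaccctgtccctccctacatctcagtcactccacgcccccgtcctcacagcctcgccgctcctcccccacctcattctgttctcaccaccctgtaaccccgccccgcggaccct
The absence of these letters says nothing about other elements.

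Depth was obtained from the steps of the low FPKM values and ranged from 21229623 to 38797889 fragments per library. The 7 tested genes of the deleted interval were all lower in 5A3+/del than in WT cells in each population, with log2 differences of -1.21 to -0.53, so the genotype labels held. The sort labels held as well: mean FPKM of Slamf1 (CD150) in WT cells went from 14.4 in CD150hi HSC to 1.62 in CD150lo HSC and 0.146 in CD150neg MPP, while Flt3 went from 2.86 to 29.4 and 51.4. The 3 libraries of WT mouse 3 had Xist at 234 to 319 FPKM and the other 26 libraries at most 0.470. The summed FPKM of 7 neutrophil markers varied widely between libraries, from 7.22 to 1399, with CD150hi medians of 312 (WT) and 17.9 (5A3+/del). Most of the WT CD150hi sum was S100a8 and S100a9 (means of 169 and 124 FPKM). The summed FPKM of 9 macrophage and monocyte markers was 155 to 280 per library, most of it Lyz2 (group means of 172 to 216), and the other 8 markers summed to 0.0873 to 28.2. Those of 6 megakaryocyte and 5 erythroid markers stayed within 27.5 to 62.7 and 4.91 to 27.3, and those of 4 B cell and 3 T cell markers within 0.0862 to 10.5 and 0 to 1.60.

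Most of the autophagy and lysosome genes were expressed above the middle of the transcriptome. Of the 51 that passed the filter, 42 lay above the median gene, and the median member stood at percentile 71.4 of all genes, with libraries averaged on the log2 scale. The median member had a mean of 11.8 normalized FPKM. The median of all genes was 5.57, but from averages on the log2 scale, which are lower than means, so these 2 levels are unlike measures. Map1lc3b, which encodes the LC3 protein that coats autophagosomes, was the most abundant at a mean of 70.4 over the 29 libraries, followed by the aspartic protease Ctsd (64.6), the lysosomal membrane glycoprotein Lamp1 (48.0) and the initiating kinase Ulk1 (33.1). The least abundant were Tfeb (1.13), the LC3 protease Atg4d (2.16) and Becn1 (2.35), a subunit of the lipid kinase complex that nucleates the autophagosome. FPKM here is a level per kilobase of all annotated exons of a gene, a length that can exceed that of the expressed transcript. The order of genes by level is thus approximate, and for Becn1 the annotated exons cover 7065 bases. In addition, 43.9% of the annotated Becn1 exon bases and 31.1% of those of Atg4d overlap a gene on the opposite strand (Cntd1 and Kri1). The library kit does not mark strand, so reads in these stretches cannot be assigned.

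**Figure D1:**
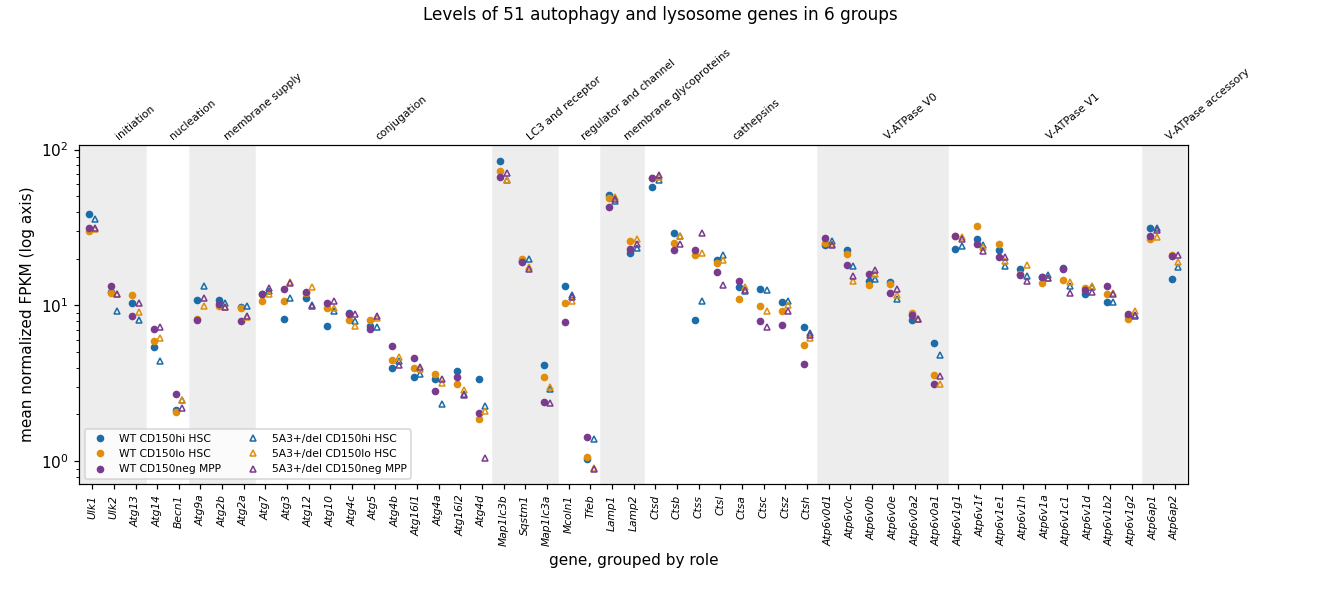
Mean normalized FPKM (log axis) of each of the 51 members that passed the filter, grouped by role along the horizontal axis. Filled circles are the 3 WT groups and open triangles the 3 5A3+/del groups. The 6 symbols of a gene lie close together for nearly all members, with Ctss and Atg4d the ones that spread over 3.61-fold and 3.21-fold between the lowest and the highest group mean.

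The levels of the 6 groups spanned a ratio of 1.11 to 3.61 between the highest and the lowest group mean, and in 49 of the 51 members this ratio was under 2. The lysosome and the proton pump supplied most of the abundant members. Of 9 V0 genes, 6 passed the filter, and of 13 V1 genes, 9 did. The kidney and osteoclast isoforms Atp6v0a4, Atp6v0d2, Atp6v1b1 and Atp6v1g3, together with Atp6v1c2 and the testis isoform Atp6v1e2, reached no more than 0.486 FPKM in any library, and Atp6v0d2 was at 0 in 27 of 29 libraries. The remaining members under the filter were Atp6v0e2 (at most 0.796 FPKM), Atg9b (at most 0.921) and the pseudogene Atg4a-ps (at most 0.637). Atg9b lies on chromosome 5 of mm9 at 23889999 to 23897961, outside the deleted interval. Its mean FPKM was 0.167 (WT) and 0.464 (5A3+/del) for CD150hi, 0.117 and 0.584 for CD150lo, and 0.345 and 0.289 for CD150neg cells. Its values overlapped between genotypes in each population, and in a fit without the filter it did not pass between genotypes (limma adjusted p = 0.527, 0.655 and 1.00).

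The first question of the design was whether loss of 1 copy of the interval changed these genes. None of the 51 members differed between genotypes in any population with limma at an adjusted p of 0.05. In CD150hi HSC 0 of 51 passed, against 0.156% of all 15409 genes, and 4 of 51 had an unadjusted p under 0.05, against 13.1% of all. In CD150lo HSC 0 passed, against 0.0324% of all, and 2 of 51 had an unadjusted p under 0.05, against 6.87%. In CD150neg MPP 0 passed, against 0.0454% of all, and again 2 of 51 had an unadjusted p under 0.05, against 4.27%. In the same order of populations, the median log2 difference of the members was -0.01, 0.02 and -0.03, and over all genes it was 0.00, 0.01 and 0.00. The 95% intervals of the differences stayed within 1 log2 unit on either side of 0 for 50, 51 and 49 of the 51 members, and within 0.5 units for 25, 29 and 19 of them. Differences of about 0.5 log2 units, and some above that, could thus be missed for many members with these libraries. The intervals are not adjusted for the number of genes, whereas the threshold is. In CD150lo HSC the member with the lowest log2 difference, -0.52, did not pass (limma adjusted p = 0.271). The neutrophil marker sums of the CD150hi libraries were 60.1 to 942 in WT and 14.5 to 123 with the deletion, and their part in the CD150hi differences was not tested. In bulk samples, fewer cells of a type and less RNA per cell cannot be told apart.

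**Figure D2:**
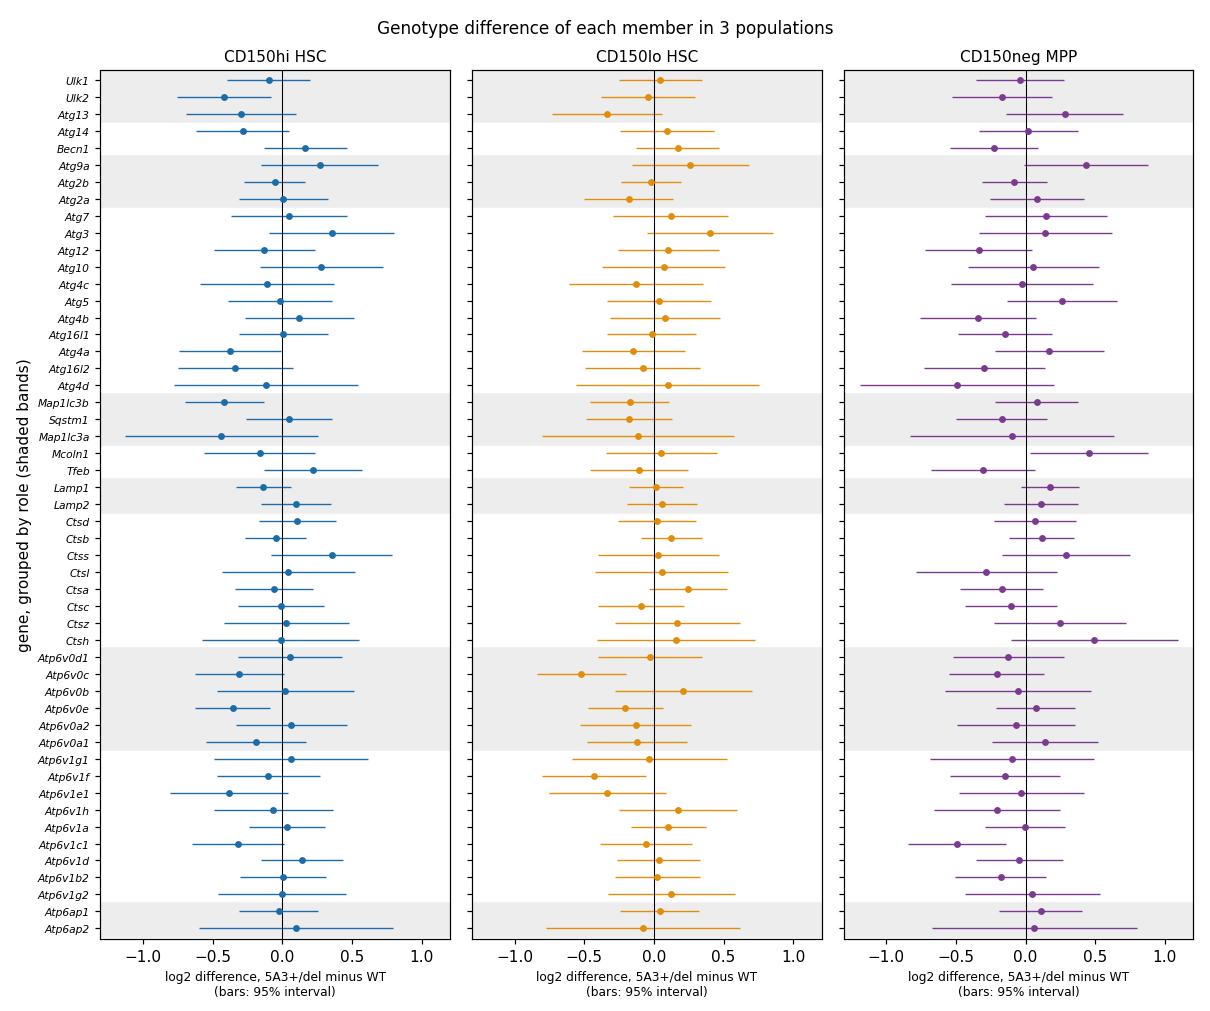
Log2 difference of 5A3+/del minus WT (horizontal axis) for each of the 51 members (vertical axis, grouped by role) in the 3 populations, with points for the limma estimate and bars for the 95% interval. Points lie on both sides of 0 in every population, from -0.44 to 0.36 for CD150hi, from -0.52 to 0.40 for CD150lo and from -0.49 to 0.49 for CD150neg cells.

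The members with the smallest p-values are given although they did not pass. In CD150hi HSC, Map1lc3b was at 94.4, 98.7, 74.4, 76.1 and 81.2 normalized FPKM in the 5 WT libraries and at 55.6, 55.5, 73.5, 56.2 and 77.9 in the 5 5A3+/del libraries. The library of 5A3+/del mouse 5 lay inside the WT range and the other 4 lay below the lowest WT value. The log2 difference was -0.42 ± 0.14 SE, with an unadjusted p of 0.00555 and a limma adjusted p of 0.186. Atp6v0e, a small subunit of the V0 sector, was at 14.7, 15.0, 13.8, 12.9 and 14.3 in WT and at 10.7, 11.1, 11.7, 12.9 and 8.40 in 5A3+/del CD150hi HSC. The groups nearly touched, with a lowest WT value of 12.95 and a highest 5A3+/del value of 12.88. Its log2 difference was -0.36 ± 0.13 SE, with a limma adjusted p of 0.228. Ulk2, the paralog of Ulk1, had a log2 difference of -0.42 ± 0.16 SE, the LC3 protease Atg4a one of -0.37 ± 0.18 SE and Atp6v0c one of -0.31 ± 0.16 SE, with limma adjusted p-values of 0.272, 0.375 and 0.399. All 5 were lower in 5A3+/del cells.

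In CD150lo HSC the smallest p belonged to Atp6v0c, the proteolipid whose ring carries protons through the membrane. The normalized FPKM of Atp6v0c was 27.7, 22, 23.9, 18.9 and 20.4 in the 5 WT CD150hi libraries, 26.1, 25.5, 21.8, 19.8 and 13.4 in the CD150lo and 17.8, 23.4, 18.2, 18.0 and 14.2 in the CD150neg libraries. For the deleted mice it was 21.3, 18.7, 15.5, 15.7 and 18.6 (CD150hi), 13.0, 11.2, 15.0, 17.4 and 14.9 (CD150lo) and 14.8, 14.8, 17.1 and 15.6 (CD150neg). In CD150lo HSC 4 of the WT libraries lay above all 5A3+/del libraries and WT mouse 5 lay among them. The log2 difference was -0.52 ± 0.16 SE, with a limma adjusted p of 0.271, and without WT mouse 5 the difference was -0.67 with an adjusted p of 0.0228. The difference was -0.31 in CD150hi HSC and -0.21 in CD150neg MPP. Next in CD150lo HSC came the V1 subunit Atp6v1f (-0.43), the LC3-conjugating enzyme Atg3 (0.40), the protective protein cathepsin A gene Ctsa (0.25) and the initiation subunit Atg13 (-0.33), with limma adjusted p-values of 0.618 to 0.825.

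In CD150neg MPP the V1 subunit Atp6v1c1 had the smallest p. It stood at 18.4, 17.7, 14.3, 15.7 and 19.7 in WT and at 12.7, 8.47, 12.0 and 15.1 in 5A3+/del libraries, with overlapping groups. Its log2 difference was -0.49 ± 0.17 SE, unadjusted p = 0.00777, and its limma adjusted p rounded to 1.00. Mcoln1 (0.46), the membrane-trafficking protein gene Atg9a (0.44), the conjugated ubiquitin-like protein gene Atg12 (-0.34) and Lamp1 (0.18) followed, all with an adjusted p that rounded to 1.00.

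The second question was how these genes differed among the 3 sorted populations. Between CD150hi HSC and CD150neg MPP of WT mice, 5 of 51 members passed the threshold with limma, against 10.0% of all genes, so the share of members was near the background. Atp6v0a1, Ctsc, Mcoln1 and Ctsb were higher in CD150hi HSC and Ctss was lower. By unadjusted p under 0.05 there were 11 of 51, against 21.8% of all. In 5A3+/del mice 3 of 51 passed, against 6.16% of all: Ctsc was higher, and Ctss and Atg14 were lower in CD150hi HSC. Here 5 of 51 had an unadjusted p under 0.05, against 16.9%. The median difference of all members was 0.05 in WT and 0.03 in 5A3+/del mice, and that of all genes was -0.01 and 0.00.

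Ctss changed the most in both genotypes. It encodes cathepsin S, a cysteine protease that trims the invariant chain of MHC class II in antigen-presenting cells. In WT mice, Ctss read 5.45, 6.21, 9.63, 11.8 and 7.12 normalized FPKM in CD150hi HSC, 19.996, 20.6, 18.9, 25.1 and 20.8 in CD150lo and 20.2, 20.4, 19.1, 27.9 and 26.2 in CD150neg cells. Its 5A3+/del values were 7.41, 8.17, 11.5, 9.01 and 17.2, then 25.2, 19.3, 23.3, 17.7 and 22.7, and 17.6, 30.0, 41.1 and 27.5, in the same order of populations. In each genotype all CD150hi libraries lay below all CD150lo and all CD150neg libraries, narrowly so in 5A3+/del mice, where the highest CD150hi value was that of mouse 5 and the lowest CD150neg value that of mouse 1. From CD150hi to CD150neg cells, the means were 8.03 ± 2.61, 21.1 ± 2.39 and 22.8 ± 3.99 (SD, n = 5 each) in WT cells and 10.7 ± 3.97, 21.7 ± 3.05 (n = 5 each) and 29 ± 9.66 (n = 4) in 5A3+/del cells. Against CD150neg MPP, Ctss was 2.83-fold lower in WT CD150hi HSC (log2 difference -1.43 ± 0.21 SE, limma adjusted p = 2.94e-05) and 2.72-fold lower in 5A3+/del CD150hi HSC (-1.36 ± 0.22 SE, adjusted p = 0.000150).

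Against CD150lo HSC, Ctss was the single member that passed in each genotype. This was 1 of 51, against 3.53% of all genes in WT and 3.18% in 5A3+/del mice, while 4 and 5 of 51 had an unadjusted p under 0.05, against 14.1% and 13.3%. The log2 difference was -1.33 ± 0.21 SE in WT (limma adjusted p = 0.000225) and -1.01 ± 0.21 SE in 5A3+/del mice (adjusted p = 0.00464). CD150lo HSC and CD150neg MPP did not differ in Ctss past the threshold, with log2 differences of -0.10 ± 0.21 SE and -0.36 ± 0.22 SE. Ctss passed in these 4 comparisons under each alternative that was run.

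Since cathepsin S is abundant in macrophages and B cells, the markers of these cells are given beside it. Of the 9 macrophage and monocyte markers, Lyz2 carried most of the sum, with means of 179, 186 and 172 FPKM from CD150hi to CD150neg cells in WT mice and 194, 216 and 195 in 5A3+/del mice. The other 8 markers summed to 0.0873 to 11.4 FPKM (median 7.09) in WT CD150hi HSC, 0.921 to 28.2 (7.44) in CD150lo and 1.01 to 3.46 (1.86) in CD150neg cells. With the deletion these sums were 0.137 to 9.28 (5.72), 1.08 to 25.9 (15.8) and 0.728 to 5.83 (1.42). The groups overlapped, and the medians were lowest in the CD150neg cells, where the mean of Ctss was highest. Single markers ran in different directions: WT means from CD150hi to CD150neg cells were 2.33, 2.98 and 0.266 FPKM for C1qb and 0.0755, 0.273 and 0.873 for Cd14. Marco was at 0 in all WT CD150hi and CD150lo libraries, and C1qa in all 5A3+/del CD150neg libraries. The 4 B cell markers had median sums of 1.18, 1.02 and 1.86 FPKM from CD150hi to CD150neg cells in WT mice, with highest values of 2.36, 6.69 and 10.5, the last in WT mouse 5 alone. In 5A3+/del mice the medians were 0.440, 1.17 and 1.82. The part of these markers in the Ctss values was not tested.

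Ctsc encodes cathepsin C, the dipeptidyl peptidase that activates the granule serine proteases. The normalized FPKM of Ctsc was 12.3, 18.7, 12.1, 10.2 and 10.7 in the 5 WT CD150hi libraries, 7.40, 9.88, 13.0, 9.31 and 10.3 in the CD150lo and 7.34, 7.48, 8.70, 7.01 and 9.06 in the CD150neg libraries. For the deleted mice it was 17.5, 11.9, 11.6, 10.8 and 11.4 (CD150hi), 8.65, 7.67, 10.9, 8.79 and 10.1 (CD150lo) and 7.10, 7.65, 6.45 and 7.86 (CD150neg). All CD150hi libraries lay above all CD150neg libraries in both genotypes, and the CD150lo libraries overlapped both. The difference between CD150hi HSC and CD150neg MPP was 1.62-fold in WT (log2 0.61 ± 0.15 SE, limma adjusted p = 0.00897) and 1.74-fold in 5A3+/del mice (log2 0.70 ± 0.16 SE, adjusted p = 0.00561). The call was lost without 1 mouse in each genotype: without WT mouse 2 the WT adjusted p was 0.0831, and without 5A3+/del mouse 1 the 5A3+/del adjusted p was 0.0590. From CD150hi to CD150neg cells, the means of Ctsc were 12.8 ± 3.41, 9.98 ± 2.02 and 7.92 ± 0.902 (SD, n = 5 each) in WT cells and 12.6 ± 2.76, 9.24 ± 1.29 (n = 5 each) and 7.26 ± 0.634 (n = 4) in 5A3+/del cells. Cathepsin C is abundant in neutrophils, and the median neutrophil marker sum was 312 FPKM in CD150hi and 63.5 in CD150neg cells of WT mice, the direction of Ctsc, and 17.9 and 88.1 in 5A3+/del mice, the opposite one. S100a8 and S100a9 held most of these sums, with WT means of 169 and 124 FPKM in CD150hi and 35.0 and 14.8 in CD150neg cells. The part of these markers in the Ctsc values was not tested.

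**Figure D3:**
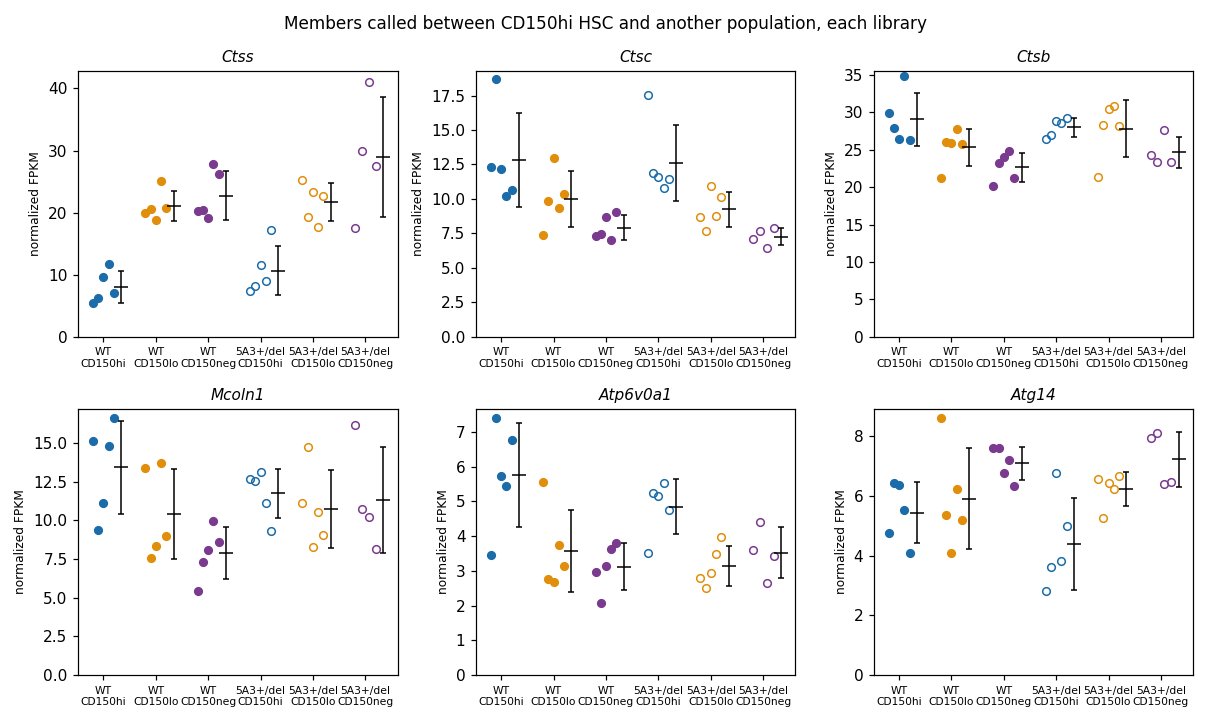
Normalized FPKM of the 6 members that passed the threshold between CD150hi HSC and another population, 1 point per library in each of the 6 groups, with filled points for WT and open points for 5A3+/del mice. Black bars are the mean ± SD. For Ctss the CD150hi points of each genotype lie under all points of its other populations, while for Mcoln1, Atp6v0a1 and Atg14 the groups overlap.

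Atp6v0a1, Mcoln1 and Ctsb passed in WT mice. Atp6v0a1 encodes an isoform of the large V0 subunit a. Atp6v0a1 was measured at 3.46, 7.40, 5.74, 5.45 and 6.76 normalized FPKM in WT CD150hi HSC, with 5.55, 2.76, 2.69, 3.75 and 3.14 in CD150lo HSC and 2.97, 2.07, 3.13, 3.63 and 3.79 in CD150neg MPP. With the deletion, the libraries gave 3.52, 5.25, 5.14, 5.54 and 4.76 for CD150hi, 2.81, 2.51, 2.95, 3.49 and 3.97 for CD150lo and 3.61, 4.42, 2.64 and 3.44 for CD150neg cells. WT mouse 1 was at the level of the CD150neg libraries in CD150hi HSC and the other 4 WT mice were above every WT CD150neg library. In CD150hi HSC of WT mice Atp6v0a1 was 1.85-fold higher than in CD150neg MPP (log2 0.70 ± 0.17 SE, limma adjusted p = 0.00878). Without WT mouse 2 its adjusted p was 0.0984. The difference in 5A3+/del mice was 0.37 ± 0.19 SE with an adjusted p of 0.314, and the 2 genotypes did not differ from each other past the threshold (interaction -0.33 ± 0.25 SE). Against CD150lo HSC the log2 differences of Atp6v0a1 were 0.56 and 0.49, with adjusted p-values of 0.0763 and 0.149, and the first became 0.84 with an adjusted p of 0.00331 without WT mouse 1. The isoform Atp6v0a2 was the more abundant one in most libraries: its ratio to Atp6v0a1 had a CD150hi median of 1.34 (WT) and 1.69 (5A3+/del), and medians of 2.26 to 2.62 in the other 4 groups.

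Mcoln1, whose promoter window is shown above, passed in WT mice alone, which does not show that the genotypes differ. In WT mice, Mcoln1 read 15.1, 9.40, 11.1, 14.8 and 16.6 normalized FPKM in CD150hi HSC, 13.4, 7.58, 8.36, 13.7 and 8.97 in CD150lo and 5.40, 7.30, 8.10, 9.92 and 8.58 in CD150neg cells. Its 5A3+/del values were 12.7, 12.5, 13.1, 11.1 and 9.28, then 11.1, 14.7, 8.24, 10.5 and 9.03, and 16.2, 10.7, 10.2 and 8.17, in the same order of populations. WT CD150hi libraries were above most WT CD150neg libraries with 1 pair out of order, and the 5A3+/del groups overlapped throughout. The WT difference was 1.71-fold (log2 0.70 ± 0.19 SE, limma adjusted p = 0.0194), with adjusted p-values of 0.132 without WT mouse 1 and 0.0822 without WT mouse 5. In 5A3+/del mice it was 0.08 ± 0.21 SE, and the interaction was -0.62 ± 0.28 SE with an unadjusted p of 0.0377 and a limma adjusted p of 0.596.

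Ctsb encodes cathepsin B, a cysteine protease of the lysosome. The normalized FPKM of Ctsb was 30.0, 27.9, 26.4, 34.8 and 26.3 in the 5 WT CD150hi libraries, 21.2, 26, 25.9, 27.7 and 25.7 in the CD150lo and 20.1, 23.3, 24.0, 24.8 and 21.3 in the CD150neg libraries. For the deleted mice it was 26.4, 26.9, 28.9, 28.6 and 29.2 (CD150hi), 21.3, 28.3, 30.4, 30.8 and 28.1 (CD150lo) and 24.3, 23.3, 27.7 and 23.3 (CD150neg). In WT mice all CD150hi libraries lay above all CD150neg libraries. The difference was 1.28-fold (log2 0.34 ± 0.11 SE) with a limma adjusted p of 0.0400, which passed in 7 of 18 alternatives. It was lost without WT mouse 1, 2, 4 or 5 (limma adjusted p = 0.150, 0.0832, 0.121 and 0.0944) and without 5A3+/del mouse 2, 3, 4 or 5 (0.0536 to 0.0559). The same held with median scaling (0.0588), with FPKM as deposited without normalization (0.0987) and with the compared groups fitted alone (0.144). The log2 difference in 5A3+/del mice was 0.18 ± 0.11 SE, and the interaction was -0.16 ± 0.16 SE. Of the annotated Ctsb exon bases, 16.2% overlap Fdft1 on the opposite strand.

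Atg14 encodes the subunit that directs the lipid kinase complex to autophagy. Atg14 was measured at 4.77, 6.44, 6.37, 5.54 and 4.10 normalized FPKM in WT CD150hi HSC, with 8.62, 5.38, 4.10, 6.24 and 5.19 in CD150lo HSC and 7.59, 7.60, 6.77, 7.19 and 6.32 in CD150neg MPP. With the deletion, the libraries gave 2.81, 3.62, 6.79, 3.82 and 4.98 for CD150hi, 6.57, 5.27, 6.42, 6.22 and 6.67 for CD150lo and 7.95, 8.10, 6.42 and 6.47 for CD150neg cells. The 5A3+/del CD150hi libraries were low except that of mouse 3, which lay within the CD150neg range. In 5A3+/del mice the gene was 1.64-fold lower in CD150hi HSC than in CD150neg MPP (log2 -0.65 ± 0.17 SE, limma adjusted p = 0.0210). The call was lost without 5A3+/del mouse 1, 2 or 4 (adjusted p = 0.194, 0.152 and 0.0693). The WT difference was -0.34 ± 0.16 SE (adjusted p = 0.220), and the interaction was -0.30 ± 0.24 SE. With the libraries of the 2 groups fitted alone, Ctss stayed past the threshold in both genotypes and the other calls between CD150hi HSC and CD150neg MPP were lost, with adjusted p-values of 0.0533 to 0.144 in WT and 0.0534 (Ctsc) and 0.177 (Atg14) in 5A3+/del mice.

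**Figure D4:**
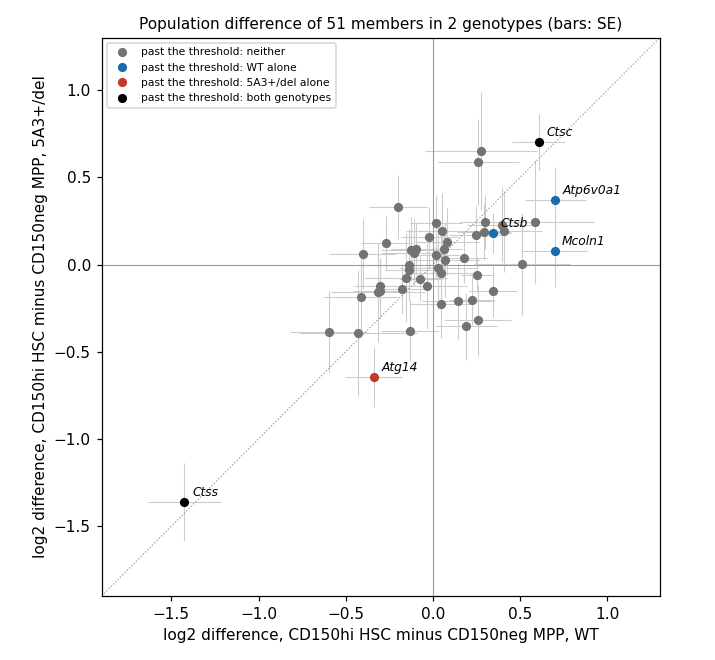
Log2 difference of CD150hi HSC minus CD150neg MPP in WT (horizontal axis) against 5A3+/del mice (vertical axis) for the 51 members, with bars of 1 SE and a dotted line of equality. Colors mark which genotype passed the threshold. Ctss lies far from the rest at -1.43 and -1.36, and Ctsc at 0.61 and 0.70.

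The differences of the 51 members between CD150hi HSC and CD150neg MPP were set side by side in the 2 genotypes, which share no library. Pearson's r across the members was 0.69 with Ctss and 0.53 without it, and across all 15409 genes it was 0.54. In 35 of 51 members and in 61.8% of all genes the sign was the same. Genes are not independent replicates and all share the same libraries within a genotype. Between CD150hi and CD150lo HSC r was 0.77 across members, 0.63 without Ctss and 0.48 across all genes. Between CD150lo HSC and CD150neg MPP r was 0.05 across members and 0.11 across all genes.

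Between CD150lo HSC and CD150neg MPP no member passed. In WT mice 0 of 51 passed with limma, against 0.188% of all genes, and 3 of 51 had an unadjusted p under 0.05, against 8.75%. In 5A3+/del mice 0 passed, against 0.0389%, and 2 had an unadjusted p under 0.05, against 4.95%. The smallest p-values in WT mice were those of Ctsa (-0.36), Atg13 (0.44), Lamp1 (0.20), Atp6v1f (0.36) and Ctsc (0.29), given as log2 differences that did not pass. With the deletion they were those of Atg12 (0.43), the cysteine protease gene Ctsl (0.54), Ctsc (0.30), the V1 subunit Atp6v1h (0.38) and Atg4d (0.57).

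The members next in p against CD150neg MPP in 5A3+/del CD150hi HSC were Ctsl (0.59 ± 0.25 SE) and Ulk2 (-0.38 ± 0.17 SE), with limma adjusted p-values of 0.195 and 0.254. Against CD150lo HSC, the members after Ctss and Atp6v0a1 were Ulk1 (0.36), Ctsc (0.32) and Lamp2 (-0.22) in WT mice. Those of the deleted mice were Atg14 (-0.46), Ctsc (0.40) and Ulk2 (-0.38). Their adjusted p-values were between 0.151 and 0.435.

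The third question was whether the step from CD150neg MPP to CD150hi HSC differed by genotype. No member passed in this interaction, and neither did any other gene (0% of all), while 6 of 51 members had an unadjusted p under 0.05, against 7.96% of all. Map1lc3b had the smallest p (-0.50 ± 0.20 SE, limma adjusted p = 0.543), followed by Atp6v0e (-0.43), Lamp1 (-0.31), Mcoln1 (-0.62) and Tfeb (0.53). The 95% intervals of the interaction stayed within 1 log2 unit of 0 for 41 of 51 members.

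The core genes of the pathway are given in the order in which their products act, with the range over the 15 WT and the 14 5A3+/del libraries. Ulk1, the kinase that starts autophagosome formation, ranged over 24.5 to 47.9 normalized FPKM in WT and 23.3 to 46.3 in 5A3+/del libraries. It exceeded Ulk2 in every library, with a median ratio of 2.39 to 3.30 over the WT groups and 2.43 to 4.10 over the 5A3+/del groups. Becn1 ranged over 1.43 to 3.26 in WT and 1.60 to 3.00 in 5A3+/del libraries. Of its complex, Atg14 was thus measured at a mean of 6.01, above Becn1 on this scale. Among the genes that supply membrane, the mean levels were those of Atg9a (10.2), Atg2b (10.2) and Atg2a (9.08).

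Conjugation couples LC3 to the lipid of the growing membrane through 2 ubiquitin-like reactions. The activating and transferring enzymes stood at means of Atg7 (11.9), Atg3 (11.8) and Atg10 (9.45), and the conjugate itself at Atg12 (11.5), Atg5 (7.76), Atg16l1 (3.95) and Atg16l2 (3.12). Atg5 ranged over 4.82 to 10.8 in WT and 5.63 to 10.5 in 5A3+/del libraries. Of the LC3 proteases, Atg4c had the highest FPKM, in the order of means Atg4c (8.33), Atg4b (4.54), Atg4a (3.12) and Atg4d (2.16). By fragments Atg4b was above Atg4c (medians of 761 and 720 per library), with annotated exon lengths of 6037 and 3351 bases.

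Map1lc3b is the member with the smallest p both between genotypes in CD150hi HSC and in the interaction. In WT mice, Map1lc3b read 94.4, 98.7, 74.4, 76.1 and 81.2 normalized FPKM in CD150hi HSC, 87.9, 77.0, 66.0, 67.2 and 63.4 in CD150lo and 63.2, 79.4, 64.9, 63.7 and 61.8 in CD150neg cells. Its 5A3+/del values were 55.6, 55.5, 73.5, 56.2 and 77.9, then 67.9, 60.8, 72.0, 50.7 and 68.5, and 89.5, 73.4, 61.1 and 60.3, in the same order of populations. WT CD150hi libraries were the highest of the 6 groups on average and 5A3+/del CD150hi libraries the lowest, with overlap between nearly all groups. Its paralog Map1lc3a was lower, with a median ratio of Map1lc3b to Map1lc3a of 16.6 to 33.9 over the groups. Sqstm1 encodes p62, a receptor that carries ubiquitinated cargo to LC3. It ranged over 15.4 to 22.6 in WT and 11.6 to 23.6 in 5A3+/del libraries, and 17.3% of its annotated exon bases overlap a gene on the opposite strand.

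Tfeb ranged over 0.481 to 2.23 in WT and 0.602 to 1.76 in 5A3+/del libraries, and at a level near 1 FPKM the log2(FPKM + 1) scale understates its changes. Of the membrane glycoproteins that line the lysosome, Lamp1 ranged over 38.9 to 58.0 in WT and 39.8 to 52.0 in 5A3+/del libraries. Its group means differed by at most 1.19-fold, and on the FPKM scale it exceeded Lamp2 by a median of 1.86 to 2.37 times over the groups. By fragments Lamp2 was the higher one (medians of 6471 and 2981 per library), with annotated exon lengths of 9552 and 2255 bases. Ctsd, the main aspartic protease of the lysosome, ranged over 51.1 to 82.9 in WT and 50.7 to 84.6 in 5A3+/del libraries. The mean levels of the other cathepsins were those of Ctsb (26.3), Ctss (18.5), Ctsl (18.3), Ctsa (12.8), Ctsc (10.1), Ctsz (9.59) and Ctsh (6.06). The median ratio of Ctsd to Ctss was 7.83 (WT) and 6.22 (5A3+/del) for CD150hi HSC and 2.27 to 3.09 in the other 4 groups.

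In the V1 sector, the catalytic subunit gene Atp6v1a ranged over 10.5 to 18.0 in WT and 11.3 to 18.6 in 5A3+/del libraries, and its highest and lowest group means differed by 1.12-fold. The other V1 genes stood at means of Atp6v1g1 (26.1), Atp6v1f (25.8), Atp6v1e1 (20.9), Atp6v1h (16.2), Atp6v1c1 (14.9), Atp6v1d (12.7), Atp6v1b2 (11.7) and Atp6v1g2 (8.69). The V0 genes stood at Atp6v0d1 (25.4), Atp6v0c (18.4), Atp6v0b (15.2), Atp6v0e (12.6), Atp6v0a2 (8.38) and Atp6v0a1 (4.01), and the accessory genes at Atp6ap1 (29.2) and Atp6ap2 (19.0). Atp6v1g1 exceeded its isoform Atp6v1g2 by a median of 2.67 to 4.30 times over the groups.

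By role, members that passed were found among the cathepsins (3 of 8 in WT and 2 of 8 in 5A3+/del mice between CD150hi HSC and CD150neg MPP), the V0 genes (1 of 6 in WT), the regulator and channel (1 of 2 in WT) and the nucleation genes (1 of 2 in 5A3+/del mice). Of all genes, 10.0% and 6.16% passed in this comparison in WT and 5A3+/del mice, and the roles hold few genes each. The 3 initiation genes, 3 membrane supply genes, 11 conjugation genes, 3 genes of LC3 and its receptor, 2 membrane glycoproteins, 9 V1 genes and 2 accessory genes held none that passed in any comparison. The median log2 difference of the 9 V1 genes between CD150hi HSC and CD150neg MPP was 0.02 in WT and 0.06 in 5A3+/del mice, and that of the 11 conjugation genes was -0.04 and -0.12.

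Of the 51 members, 4 lie on the X chromosome: Atp6ap1, Atp6ap2, Lamp2 and Atg4a. In WT mouse 3, whose libraries were the ones with Xist, Atp6ap2, the accessory subunit known as the prorenin receptor, read 14.5, 26.8 and 30.1 in CD150hi, CD150lo and CD150neg cells. The other WT mice spanned 11.1 to 21.5, 8.91 to 34.6 and 13.8 to 27.8. In CD150neg MPP its value was above those of the other WT mice, and in CD150hi and CD150lo HSC it was within their range. Lamp2 of the same mouse was 20.1, 32.9 and 25.7, with the CD150lo and CD150neg values above those of the other WT mice. None of the 4 genes passed in any comparison, and without this mouse none of them did either. Atg4a has a pseudogene copy in the table, Atg4a-ps, so its reads may be split and its value is uncertain.

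Other genes of the same organelles were taken from 3 lists. Of 41 further lysosome genes, all tested, none passed between genotypes in any population, and 3, 2 and 0 had an unadjusted p under 0.05 from CD150hi to CD150neg cells, against 13.1%, 6.87% and 4.27% of all genes. Between CD150hi HSC and CD150neg MPP, 2 were higher and 5 lower in WT, and 3 were higher and 3 lower in 5A3+/del mice, against 10.0% and 6.16% of all genes that passed. Npc1, the cholesterol exporter of the lysosome, was lower in CD150hi HSC in both genotypes (4.33 ± 0.944 against 6.96 ± 1.25 normalized FPKM, log2 difference -0.58, limma adjusted p = 0.00672 in WT and 3.56 ± 0.898 against 6.93 ± 0.861 normalized FPKM, log2 difference -0.82, limma adjusted p = 0.000548 in 5A3+/del mice). So was Laptm5, a lysosomal membrane protein of blood cells (165 ± 24.8 against 239 ± 31.1 normalized FPKM, log2 difference -0.54, limma adjusted p = 0.00183 in WT and 169 ± 6.85 against 250 ± 37.1 normalized FPKM, log2 difference -0.55, limma adjusted p = 0.00315 in 5A3+/del mice). Ctsf, encoding cathepsin F, was higher in CD150hi HSC in both, by 0.51 and 0.51 on the log2 scale (limma adjusted p = 0.0214 and 0.0441).

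In WT mice the lysosomal lipase gene Lipa (-0.71), the mannosidase gene Man2b1 (-0.53) and the sulfatase gene Arsb (-0.59) were lower in CD150hi HSC. With the deletion, the hexosaminidase gene Hexa (0.66) and the tetraspanin gene Cd63 (0.65) were higher and Npc2 (-0.43), the soluble partner of Npc1, lower. A call in 1 genotype alone does not show that the genotypes differ, and no gene of the 3 lists passed in the interaction. Against CD150lo HSC, the asparaginyl protease gene Lgmn was lower in WT CD150hi HSC (-0.93, limma adjusted p = 0.0415) and Npc1 in 5A3+/del CD150hi HSC (-0.77, adjusted p = 0.00113). Each was 1 of 41, against 3.53% of all genes in WT and 3.18% in 5A3+/del mice.

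Of 32 further autophagy genes, 29 were in the table and all 29 were tested. None passed between genotypes, and 5, 3 and 1 had an unadjusted p under 0.05 in the 3 populations, against 13.1%, 6.87% and 4.27% of all genes. Gabarapl1, a member of the LC3 family, was higher in 5A3+/del CD150hi HSC than in CD150neg MPP (92.4 ± 14.7 against 58.0 ± 6.63 normalized FPKM, log2 difference 0.66, limma adjusted p = 0.00137) and than in CD150lo HSC (log2 difference 0.44, adjusted p = 0.0433). Each was 1 of 29, against 6.16% and 3.18% of all genes. No gene of this list passed in WT mice, where 6, 1 and 3 had an unadjusted p under 0.05 for CD150hi against CD150neg, CD150hi against CD150lo and CD150lo against CD150neg, with 21.8%, 14.1% and 8.75% of all genes. Of 24 genes of lysosomal nutrient sensing, 19 were in the table and 18 were tested. One passed in any comparison: Foxo3, a transcription factor known to drive autophagy genes in HSC, was lower in WT CD150hi HSC than in CD150neg MPP (36.7 ± 2.38 against 50.1 ± 1.40 normalized FPKM, log2 difference -0.44, limma adjusted p = 0.00187). This was 1 of 18, against 10.0% of all genes, so the list was not above the background. In that comparison 1 of 18 had an unadjusted p under 0.05, against 21.8% of all.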

How the data were processed

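RNA of the 3 CD150 populations from 10 mice was amplified (Ovation RNA Amplification V2) and made into TruSeq v2 libraries with 10 PCR cycles, a preparation that does not mark strand, and read as paired ends of 100 bases. The deposited values are FPKM (a fragment count divided by the length of the exons and by the depth) per gene in 29 libraries, computed by the authors on mm9; the submitters' processing notes name Bowtie 0.12.2 and HTSeq without a role. The study's own tests used coverage of the highest covered coding exon, quantile normalized and fitted with limma. That measure was not used here, and the same steps were applied to FPKM.

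A gene was tested when 4 or more libraries had it at an FPKM of 1 or higher, log2(FPKM + 1) was quantile normalized over all 29 libraries, and group means were fitted with limma 3.58.1 in R 4.3.3 (moderated two-sided tests, Benjamini-Hochberg adjustment over 15409 genes, threshold 0.05). Values called normalized FPKM are after that normalization, and a fold is the ratio of their group means, whereas log2 differences are on the log2(FPKM + 1) scale, which understates the change of low genes. Samples were grouped by the genotype and population in the labels, and the labels' mouse code ties the populations of a mouse. Deviations from the group means correlated at -0.0418 to 0.235 between libraries of the same mouse (28 pairs, median 0.0786) and at -0.0338 to 0.0807 between equally numbered libraries of different mice (14 pairs). A fit with the mouse as a block is an alternative for the comparisons of populations and the interaction. For the comparisons of genotypes the block in that alternative is the replicate number. The limma step alone was tested on simulated data.

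Gene lengths were matched to GENCODE vM1 for 29279 of 30025 genes. Depth came from the steps of low FPKM values, 98.4% to 98.91% of which were whole fragments within a tolerance of 0.05, and members that passed the filter had medians of 100 to 6471 fragments per library. Such numbers cover counting error only. Every member could be named, with those called or of smallest p in each comparison described singly, and genes of the 3 further lists named when called, except 1 that is not reported here. Members, lists and markers were chosen with earlier results of these data known. Other normalizations, filters, pseudocounts, a variance trend, fits of the compared groups alone and leaving out each mouse in turn were tried.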

Additional observations from a re-analysis of the deposited data

Results flagged for a closer look

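The 16 members with an individual description were examined library by library within each of the 6 groups, and 4 of 96 group and gene combinations held a library far from the rest by Dixon's criterion. Chance alone gives about 1 in 20, or 4.8 of 96. Map1lc3b stood at 79.4 normalized FPKM in the CD150neg library of WT mouse 2, against 61.8 to 64.9 in the other 4. Ctsb stood at 21.3 in the CD150lo library of 5A3+/del mouse 1, against 28.1 to 30.8. Ctsc stood at 18.7 in the CD150hi library of WT mouse 2, against 10.2 to 12.3, and at 17.5 in the CD150hi library of 5A3+/del mouse 1, against 10.8 to 11.9. Without these mice, the limma adjusted p of Ctsc between CD150hi HSC and CD150neg MPP was 0.0831 in WT and 0.0590 in 5A3+/del mice, with log2 differences of 0.45 and 0.58. The cause of the high values was not tested.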

How the results depend on the processing

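Counts of called members were recomputed under 18 alternatives in each of the 10 comparisons, and 172 of 180 stayed within 1.5 times the reported count. Many of these comparisons had a reported count of 0, which nearly all alternatives kept, so that share says little about the calls. Between CD150hi HSC and CD150neg MPP the counts ranged from 1 to 7 in WT and from 1 to 3 in 5A3+/del mice. With only the compared groups fitted, 1 member (Ctss) was called between CD150hi HSC and CD150neg MPP in each genotype, against 5 in WT and 3 in 5A3+/del mice with all groups. Leaving out 1 mouse at a time gave 2 to 6 calls in this comparison for WT and 1 to 3 for 5A3+/del mice, 1 to 2 for CD150hi against CD150lo HSC in WT mice, and 0 to 1 between genotypes in CD150lo HSC, where Atp6v0c was called without WT mouse 5. With the mouse as a block the counts were 5, 1, 0, 3, 1 and 0 for the 6 comparisons of populations and 0 for the interaction, from the same genes. For the comparisons of genotypes the block was the replicate number, which pairs different mice, and the counts were 0. Neither block changed a call, and no fit with the mouse as a block was made between genotypes. Of 178 values of called members, 154 kept their call, 24 lost it and none reversed. Ctss lost none. Lamp1 was gained between CD150hi HSC and CD150neg MPP of WT mice without a filter (limma adjusted p = 0.0424) and with a variance trend (0.0496), Atp6v0e2 without a filter (0.0488), and Atg3 without 5A3+/del mouse 1 (log2 difference -0.60, 0.0329). The median differences of the members ranged from -0.07 to 0.10 under all alternatives. With 4 or 5 mice a group, differences of about 0.5 log2 units, and some above that, could be missed for many members. FPKM keeps no strand, and libraries of a mouse are not independent between populations. The cause of the changes was not tested beyond the smaller number of samples that these fits use.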

Other observations

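Values outside the comparisons above were chosen after they were seen. Atg4d stood at 9.79 normalized FPKM in the CD150hi library of WT mouse 1, against 0.941 to 3.18 in the other WT CD150hi libraries. Ctsh, an aminopeptidase of the lysosome, stood at 16.3 in the CD150hi library of WT mouse 2, against 4.15 to 5.85 in the other 4. WT mouse 2 also held the highest Ctsc value of all 29 libraries (18.7). Atp6v0e2, under the filter, had WT means of 0.365 FPKM for CD150hi, 0.0830 for CD150lo and 0.0204 for CD150neg cells, with values up to 0.796.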
